A study of Homo sapiens with 12 samples.

Results

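The miR-125 family (hsa-miR-125a-5p and hsa-miR-125b-5p) and the miR-99/100 family (hsa-miR-99a-5p, hsa-miR-99b-5p and hsa-miR-100-5p) were followed through 12 libraries of 2 human acute myeloid leukaemia cell lines. The 5 probes were taken by name, as the members of both families, out of 798 human miRNA probes; no count entered the rule, although the families were picked with earlier results of these data known. All 5 were weak. miR-125a-5p and miR-125b-5p were the members that reached 30 counts in at least 3 libraries, while miR-99b-5p reached 30 counts in 1 library and miR-99a-5p and miR-100-5p in 0. No member passed the test for a change with MUC1 shRNA in either line under the main scaling. In THP-1, miR-125a-5p had fewer counts in every MUC1 shRNA library than in any scrambled library, as did 13.9% of all probes and 52.2% of those tested. Its fall passed the test in 1 alternative scaling, which called 47.8% of the tested probes. let-7a-5p and let-7c-5p, which are encoded beside members of these families, fell in THP-1. So did the other tested let-7 probes, which are not among the cluster partners followed here.

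Total RNA was read on a NanoString panel, which counts single barcoded probes and uses no amplification step. The groups, each of 3 samples, were MOLM-14 cells with a lentiviral short hairpin RNA (shRNA) specific for MUC1, MOLM-14 cells with a scrambled hairpin, THP-1 cells with the MUC1 shRNA, and THP-1 cells with the scrambled hairpin. MOLM-14 and THP-1 are established lines of monocytic leukaemia, and MUC1 encodes a mucin of the cell surface that has been studied as a driver of cancer. All 4 groups carried a lentiviral hairpin, MUC1 itself was not measured on this panel, and the sources used here give neither the hairpins' sequences nor whether the transduced cells were clones.

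miR-125 is the vertebrate counterpart of lin-4, the worm miRNA that times larval development, and miR-125b is known to drive leukaemia when overexpressed in mouse blood cells. miR-99 and miR-100 are known to repress MTOR and IGF1R, which act in growth signalling. In the human genome both families sit in clusters with a let-7 gene, and let-7 miRNAs repress RAS and HMGA2.

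The mature sequences show which probes share a seed, the bases 2 to 8 that pair with target transcripts. They are printed 5′ to 3′ with the seed in capitals, from RefSeq (GRCh38.p14).
hsa-miR-125a-5p: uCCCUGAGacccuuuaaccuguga
hsa-miR-125b-5p: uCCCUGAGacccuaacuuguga
hsa-miR-99a-5p: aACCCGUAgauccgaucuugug
hsa-miR-99b-5p: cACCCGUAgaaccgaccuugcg
hsa-miR-100-5p: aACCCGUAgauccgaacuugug
hsa-let-7a-5p: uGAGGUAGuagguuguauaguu
hsa-let-7c-5p: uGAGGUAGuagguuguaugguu
hsa-let-7e-5p: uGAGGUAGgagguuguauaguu

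The 2 miR-125 members share the seed CCCUGAG and their first 13 bases. The 3 miR-99/100 members share the seed ACCCGUA. Counted from the 5′ end, miR-99a-5p and miR-100-5p differ at 1 base (U16A, miR-99a first), and miR-99a-5p and miR-99b-5p differ at 4 (A1C, U11A, U16C and U21C). let-7a-5p differs from let-7c-5p at A19G and from let-7e-5p at U9G. How far probes for such close sequences take up each other's signal cannot be read from these counts, so a difference between miR-99a-5p and miR-100-5p, or among the let-7 members, is uncertain.

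The 5 members come from 3 clusters, and all coordinates are those of GRCh38.p14. On chromosome 19, MIR99B (chr19:51692612-51692681), MIRLET7E (chr19:51692786-51692864) and MIR125A (chr19:51693254-51693339) lie within 0.728 kb, inside the protein-coding gene SPACA6 and the antisense RNA gene SPACA6-AS1. On chromosome 21, MIR99A (chr21:16539089-16539169) and MIRLET7C (chr21:16539828-16539911) lie 0.658 kb apart, and MIR125B2 (chr21:16590237-16590325) follows after 50.3 kb, all within the non-coding host gene MIR99AHG. On chromosome 11, MIR100 (chr11:122152229-122152308), MIRLET7A2 (chr11:122146522-122146593) and MIR125B1 (chr11:122099757-122099844) span 52.6 kb of the non-coding host gene MIR100HG. Exons and introns of the host genes were not used here. miR-125b-5p has 2 source genes and let-7a-5p has 3, so their probes do not report 1 cluster alone.

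The 12 libraries summed to between 9002 and 20418 counts, and their medians over the 798 probes were 10 to 15.5. Of the 798 probes, 654 stayed under 30 counts in all libraries. The number of probes at or above 30 was 14 to 32 in THP-1 with MUC1 shRNA and 54 to 65 in scrambled THP-1. MOLM-14 MUC1 shRNA replicate 2 stood apart: a chi-square statistic divided by its degrees of freedom, over the 67 probes tested, came to 19.2 and 15.9 against replicates 1 and 3, and to 2.84 between those. For replicates 2 and 3 of that group the source names read MUC2 and MUC3, whereas titles and transduction labels say MUC1, and the titles were followed. Scrambled MOLM-14 replicates 2 and 3 were not distinguished from sampling noise (1.08 on that scale over all probes, chi-square p = 0.0521, and 1.23 over tested probes, p = 0.0951), unlike the other pairs of that group. They count as 1 sample in means and SDs, which leaves n = 2 there, but enter the fits as 2 libraries. The 3 MUC1 shRNA libraries of THP-1 were likewise close to sampling noise (0.944, 0.954 and 1.06 over tested probes) and were kept apart. Over all probes replicates 1 and 3 of that group gave 1.09 (chi-square p = 0.0318). No alternative averaged these libraries, so how far the THP-1 results depend on keeping them apart was not tested. Nothing in the labels says that replicates were separate cultures, so p-values measure the spread between these samples only. Of 4 blood cell markers set as a check, miR-223-3p and miR-155-5p reached 30 counts in every group except THP-1 with MUC1 shRNA (at most 11 and 29), while miR-142-3p (10 to 23) and miR-142-5p (2 to 18) stayed near the library medians in all groups. In MOLM-14 the 4 summed to 91 to 116 counts with the MUC1 shRNA and to 108 to 180 with the scrambled hairpin. Of 14 markers of other cell types, 13 never reached 30 counts, and their sums overlapped between the hairpins in each line. None was at 0, since the lowest deposited value is 1, at which miR-143-3p stayed in all 12 libraries.

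The first question was whether the 5 probes were above the bulk of the panel. For each library the exact 95% counting interval of a probe was set against that library's median probe; such intervals cover counting error only. The interval of miR-125a-5p lay above the median in 12 of 12 libraries, that of miR-125b-5p in 8, that of miR-99b-5p in 6, that of miR-100-5p in 5 and that of miR-99a-5p in 0. miR-125a-5p was higher than 84.1% to 97.0% of the 798 probes, depending on the library, and miR-125b-5p higher than 67.0% to 96.1%. miR-99b-5p was higher than 59.5% to 98.1% (median 86.7%), with 87.8% to 95.4% in the 3 scrambled THP-1 libraries, and miR-100-5p higher than 22.7% to 93.0% (median 85.9%). miR-99a-5p was higher than 10.7% to 77.4%, with counts of 9 to 20, so its level was not detectable above the panel's background at this depth. The plot of counts by library shows the 5 probes against these medians.

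**Figure D1:**
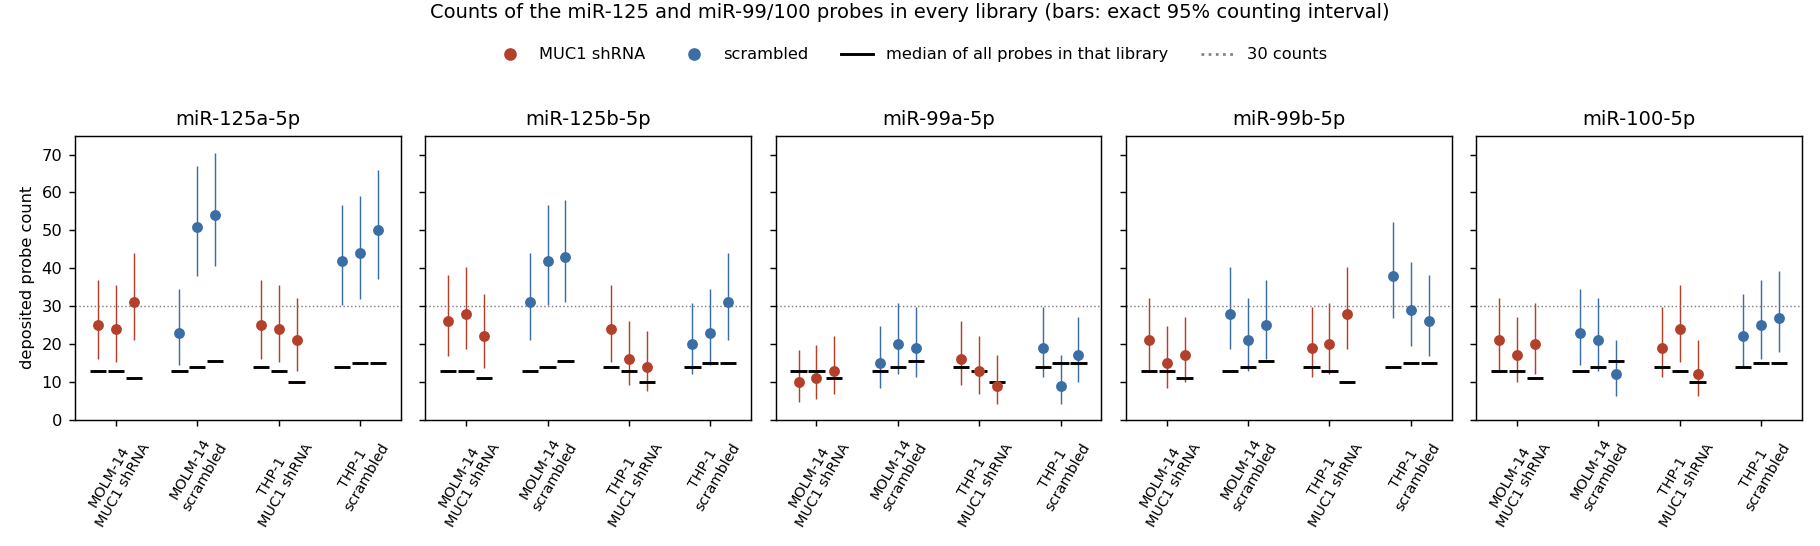
Deposited counts (y axis) of the 5 probes in the 12 libraries (x axis, 4 groups of 3), with exact 95% counting intervals as bars, each library's median over 798 probes as a black dash and 30 counts as a dotted line. miR-125a-5p lies at 21 to 25 counts in the THP-1 MUC1 shRNA libraries and at 42 to 50 in scrambled THP-1, while miR-99a-5p stays at 9 to 20 in all libraries.

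miR-125a-5p, the chromosome 19 member of the miR-125 family, had 25, 24 and 21 counts in the MUC1 shRNA libraries of THP-1, against 42, 44 and 50 counts in the scrambled ones. The groups did not overlap, and the means were 23.3 ± 2.08 and 45.3 ± 4.16 counts (SD, n = 3 each). Such a gap was common in THP-1: 13.9% of all 798 probes and 52.2% of the 67 tested ones were lower in every MUC1 shRNA library. Library totals were 9002 to 12613 counts in THP-1 with MUC1 shRNA, against 17123 to 20418 in scrambled THP-1. The 4 blood cell markers summed to 40 to 63 counts in THP-1 with MUC1 shRNA, against 132 to 148 in scrambled THP-1, and their part in the result was not tested. The fitted log2 fold change was -0.19 ± 0.24 (standard error, 95% interval -0.72 to 0.34), with an edgeR adjusted p of 0.530. The probe reached 30 counts in 6 libraries, of which 1 carried the MUC1 shRNA, so the count filter leaned on the scrambled groups. In this comparison 38.8% of the 67 probes were called, 10 as higher and 16 as lower.

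The size for miR-125a-5p in THP-1 followed the scaling. TMM factors over the 67 tested probes, the main scaling, set the median log2 fold change of these probes at -0.03. Scaling each library to the sum of 630 probes that were never at 1 and never at 30 or more, called background scaling here, set it at -0.61. Under background scaling miR-125a-5p fell (-0.77 ± 0.27, edgeR adjusted p = 0.0316), beside 47.8% of the tested probes called, 44.8% as lower and 2 probes as higher. On that scale its level was 24.8 ± 2.16 in THP-1 with MUC1 shRNA and 42.2 ± 1.93 in scrambled THP-1 (SD, n = 3 each), again without overlap, as was so for 11% of all probes and 53.7% of the tested ones. In the fit of all 798 probes without the count filter it had -0.73 ± 0.28 and an edgeR adjusted p of 0.292. In 23 of 24 alternatives it did not pass, and without scrambled THP-1 replicate 3 its log2 fold change had the other sign (0.14).

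In MOLM-14 the groups of miR-125a-5p overlapped. It had 25, 24 and 31 counts in the MUC1 shRNA libraries, against 23, 51 and 54 counts in the scrambled ones. Scrambled replicate 1 was the lowest of these 6 values, and the other scrambled libraries were the highest. The log2 fold change was -0.36 ± 0.24 (95% interval -0.88 to 0.17, edgeR adjusted p = 0.343), and -0.18 without MUC1 shRNA replicate 2. Its effect did not differ detectably between the lines (THP-1 minus MOLM-14 0.16 ± 0.34, 95% interval -0.58 to 0.91, edgeR adjusted p = 0.751), and the sign of the difference turned under background scaling (-0.33 ± 0.38). This comparison of the lines called 23.9% of the tested probes.

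miR-125b-5p, the product of a chromosome 11 and a chromosome 21 gene, had 26, 28 and 22 counts in MUC1 shRNA MOLM-14, against 31, 42 and 43 counts in scrambled MOLM-14. The probe reached 30 counts in 4 libraries, none of them with the MUC1 shRNA, so the count filter leaned on the scrambled groups. Every MUC1 shRNA library was below every scrambled one, with means of 25.3 ± 3.06 (SD, n = 3) and 36.8 ± 8.13 counts (n = 2). That held for 10% of all 798 probes and 17.9% of the tested ones, and it also held on the background scale (5.39% and 14.9%). The fitted log2 fold change was -0.35 ± 0.20, with a 95% interval of -0.78 to 0.08 and an edgeR adjusted p of 0.237, in a comparison that called 16.4% of tested probes. The counts of 2 members, miR-125b-5p and miR-99a-5p, thus did not overlap between the MOLM-14 groups, and neither passed.

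In THP-1 miR-125b-5p had 24, 16 and 14 counts with the MUC1 shRNA, against 20, 23 and 31 counts with the scrambled hairpin. The groups overlapped, and the log2 fold change was 0.29 ± 0.24 (95% interval -0.23 to 0.80, edgeR adjusted p = 0.341). The direction turned with the scaling, to -0.28 ± 0.25 under background scaling, and without scrambled replicate 3, which had the 31 counts, the TMM value was 0.74 (edgeR adjusted p = 0.0213). The difference of the line effects, 0.64 ± 0.30, had a 95% interval of -0.01 to 1.29 and an edgeR adjusted p of 0.121. Without scrambled THP-1 replicate 3 it was 1.08 and passed (edgeR adjusted p = 0.0145), while background scaling gave 0.13 (edgeR adjusted p = 0.773).

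Among the miR-99/100 probes, which did not pass the count filter, values come from the fit of all 798 probes, which called 1.25% of them in MOLM-14 and 2.63% in THP-1. miR-99b-5p, the chromosome 19 neighbour of miR-125a, had 21, 15 and 17 counts in MUC1 shRNA MOLM-14, against 28, 21 and 25 counts in scrambled MOLM-14. In THP-1 it had 19, 20 and 28 counts with the MUC1 shRNA, against 38, 29 and 26 counts with the scrambled hairpin. Both pairs of groups touched or overlapped. Log2 fold changes were -0.30 ± 0.31 in MOLM-14 (edgeR adjusted p = 0.874) and -0.23 ± 0.30 in THP-1 (edgeR adjusted p = 0.925).

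miR-100-5p, from chromosome 11, had 21, 17 and 20 counts in MUC1 shRNA MOLM-14, against 23, 21 and 12 counts in scrambled MOLM-14. In THP-1 it had 19, 24 and 12 counts with the MUC1 shRNA, against 22, 25 and 27 counts with the scrambled hairpin. It was the member with a fitted value above 0 in MOLM-14 (0.23 ± 0.31, edgeR adjusted p = 0.913), and in THP-1 it had -0.21 ± 0.30 (edgeR adjusted p = 0.942).

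miR-99a-5p, from chromosome 21, had 10, 11 and 13 counts in MUC1 shRNA MOLM-14, against 15, 20 and 19 counts in scrambled MOLM-14. The groups did not overlap in deposited counts but did on the background scale. In THP-1 it had 16, 13 and 9 counts with the MUC1 shRNA, against 19, 9 and 17 counts with the scrambled hairpin. Log2 fold changes were -0.47 ± 0.31 (edgeR adjusted p = 0.760) and -0.03 ± 0.38 (edgeR adjusted p = 0.999). At the level of the library medians these values do not bound a change of the miRNA itself.

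Taken over the 5 members in the fit of all 798 probes, the median log2 fold change was -0.42 in MOLM-14, with 4 of 5 below 0, and -0.23 in THP-1, with 5 of 5 below 0. The THP-1 signs rest on that fit, since miR-125b-5p had 0.29 in the test of the 67 probes. The medians over all 798 probes were -0.01 and 0.02, and 654 of these probes stayed under 30 counts in all libraries. Under background scaling the medians of the 67 tested probes were -0.06 in MOLM-14 and -0.61 in THP-1. The share of all probes below 0 was not taken, so the members' signs are not read as a shift of these families. In each line 0 of 5 members passed by edgeR, 0 had an unadjusted p under 0.05 in the fit its value above was taken from, and 0 passed by DESeq2 or limma. In the fit of all 798 probes miR-125a-5p in THP-1 had an unadjusted edgeR p of 0.0187. For the difference of the line effects these counts were again 0, beside 1.88% of the 798 probes called. The 95% intervals were turned into folds of the whole count with background included, each from the fit that gave the member's value above. They ran from 0.459 (miR-99a-5p) to 1.82 (miR-100-5p) in MOLM-14 and from 0.556 (miR-99b-5p) to 1.75 (miR-125b-5p) in THP-1. In the fit of all 798 probes, the THP-1 log2 intervals were -1.32 to -0.13 for miR-125a-5p and -0.77 to 0.30 for miR-125b-5p. In RNA of whole cultures, fewer cells of a type and less RNA per cell cannot be told apart. The plot of fitted effects shows both scalings side by side.

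**Figure D2:**
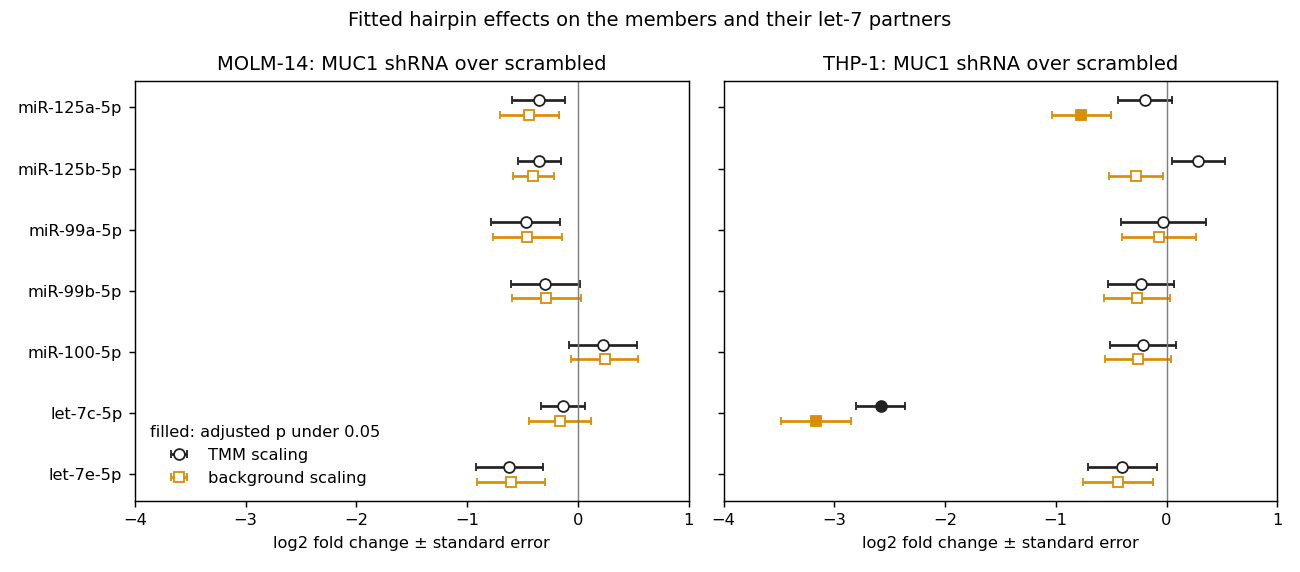
Log2 fold change of MUC1 shRNA over scrambled (x axis, bars are standard errors) for the 5 members, let-7c-5p and let-7e-5p (y axis) in MOLM-14 and THP-1, under TMM scaling (circles) and background scaling (squares), filled where the edgeR adjusted p is under 0.05. Circles of miR-125a-5p, miR-125b-5p and let-7c-5p come from the fit of the 67 tested probes, the other circles from that of all 798. TMM scaling and p adjustment differ between these fits, so their circles are not on a common scale. In THP-1 miR-125a-5p is filled under background scaling only (-0.77), and let-7c-5p is filled under both (-2.58 with TMM). The TMM fit of all 798 probes gave -0.73 for miR-125a-5p, -0.24 for miR-125b-5p and -3.12 for let-7c-5p in THP-1.

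The members' cluster partners were then set beside them, as a list of 3 let-7 miRNAs given by genome position. In THP-1, where 23.9% of tested probes fell, let-7a-5p and let-7c-5p fell and let-7e-5p did not pass. let-7c-5p, which lies between miR-99a and miR-125b-2 on chromosome 21, had 18, 16 and 12 counts with the MUC1 shRNA, against 141, 170 and 157 counts with the scrambled hairpin (log2 fold change -2.58 ± 0.22, edgeR adjusted p = 1.94e-06). Its MUC1 shRNA counts were at the library medians, so the size of this fall is uncertain. let-7a-5p was at the deposited minimum of 1 in all 3 MUC1 shRNA libraries, against 471, 913 and 434 counts in the scrambled ones. It passed (edgeR adjusted p = 0.00076), but a fold against the minimum would have no meaning. let-7e-5p lies between miR-99b and miR-125a on chromosome 19. It had 15, 21 and 8 counts with the MUC1 shRNA, against 25, 19 and 23 counts with the scrambled hairpin. Its value comes from the fit of all 798 probes (-0.40 ± 0.31, edgeR adjusted p = 0.833).

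In MOLM-14 0 of the 3 partners passed. Of the tested let-7 probes outside the list, let-7b-5p (-0.81), let-7d-5p (-1.34) and let-7i-5p (-1.14) passed as lower, and let-7g-5p did not pass. let-7c-5p had 55, 117 and 52 counts with the MUC1 shRNA, against 68, 101 and 120 counts with the scrambled hairpin (-0.14 ± 0.20, edgeR adjusted p = 0.732). let-7a-5p had 1, 395 and 78 counts, against 228, 611 and 590 counts (edgeR adjusted p = 0.335). MUC1 shRNA replicate 2, the library that stood apart, was the highest of its group for both. Without it both passed, let-7a-5p at an edgeR adjusted p of 0.00737 and let-7c-5p at 0.0302 (-0.44), while 0 members passed.

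Ratios within a library need no scaling between libraries. In THP-1, let-7c-5p over miR-99a-5p was 1.13, 1.23 and 1.33 in the MUC1 shRNA libraries, against 7.42, 18.9 and 9.24 in the scrambled ones. The groups did not overlap, with mean log2 ratios of 0.29 ± 0.12 and 3.45 ± 0.70 (SD, n = 3 each). In deposited counts 52.2% of the tested probes, let-7c-5p among them, were lower without overlap in THP-1. No such share was taken for ratios. let-7a-5p over miR-100-5p was 0.0526, 0.0417 and 0.0833 with the MUC1 shRNA, where let-7a-5p was at its minimum, against 21.4, 36.5 and 16.1 with the scrambled hairpin. let-7e-5p over miR-99b-5p overlapped between the groups (0.789, 1.05 and 0.286 against 0.658, 0.655 and 0.885). The ratios without overlap were those with let-7c-5p or let-7a-5p on top, and let-7e-5p, miR-99b-5p and miR-125a-5p of chromosome 19 had at most 50 counts in any THP-1 library.

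Ratios between members of 1 cluster overlapped between the hairpins in each line. In THP-1 the log2 ratio of miR-125a-5p to miR-99b-5p averaged 0.08 ± 0.43 with the MUC1 shRNA and 0.56 ± 0.40 with the scrambled hairpin (SD, n = 3 each). Over the 6 comparisons of member with member the two-sided exact permutation test gave p-values of 0.20 to 0.90. Over all 18 ratio comparisons, those with let-7 included, the lowest was 0.10, and 0.45 after Benjamini-Hochberg adjustment. With 3 samples against 3 it cannot give less than 0.10, so none could pass. A probe at background cannot show a fall, so the ratios do not tell whether miR-99a changed less than its let-7 neighbour. miR-100-5p was weak, with 22 to 27 counts in scrambled THP-1 and its interval above the library median in 2 of these libraries. As let-7a-5p was at its minimum in THP-1 with the MUC1 shRNA, their ratio does not tell this for miR-100 either.

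**Figure D3:**
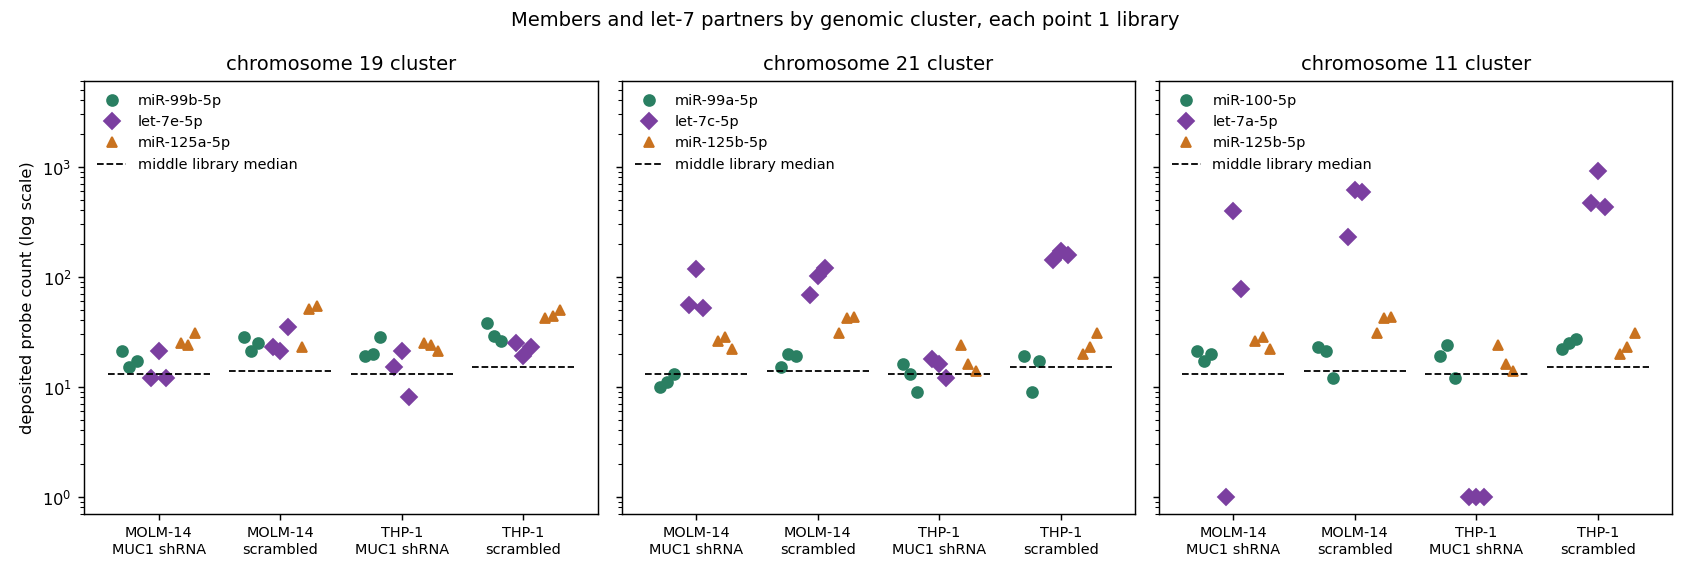
Deposited counts on a log axis (y axis) of the members and their let-7 partner in the chromosome 19, 21 and 11 clusters, with each point 1 library and the 4 groups on the x axis; the dashed line is the middle one of the group's 3 library medians, and miR-125b-5p is drawn in both clusters that encode it. let-7c-5p lies at 12 to 18 counts in THP-1 with MUC1 shRNA and at 141 to 170 with the scrambled hairpin, while miR-99a-5p stays at 9 to 19 in both.

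Of the members' other hairpin arms, miR-125a-3p was the one analysed here. In MOLM-14 it had 17, 63 and 16 counts with the MUC1 shRNA, against 7, 9 and 10 counts with the scrambled hairpin. The groups did not overlap, as was so for 1.13% of all probes in this direction. The 63 counts came from replicate 2, and the other MUC1 shRNA libraries were close to their medians of 13 and 11. The scrambled counts lay below their library medians of 13, 14 and 15.5, so the size of a rise from them is uncertain. The fit of all probes gave a rise of 2.03 ± 0.43 (edgeR adjusted p = 0.0229), among 0.627% of the 798 probes called as higher. Without replicate 2 the value was 1.17 and did not pass (edgeR adjusted p = 0.181), and the call was lost in 8 of 24 alternatives. In THP-1 it had 10, 9 and 7 counts with the MUC1 shRNA, against 15, 8 and 13 counts with the scrambled hairpin, and did not pass (-0.25 ± 0.51, edgeR adjusted p = 0.999).

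miR-10a-5p and miR-10b-5p, relatives of miR-99/100 by sequence, were at 8 to 21 and 14 to 21 counts over all 12 libraries. The lower counting limit of neither lay above the library median in any library. Neither passed in MOLM-14 (0.30 ± 0.35 and -0.02 ± 0.28) or in THP-1 (0.15 ± 0.34 and -0.21 ± 0.28). miR-10b-5p had 14 counts in each MUC1 shRNA library of THP-1 and 15, 21 and 21 counts in the scrambled ones. Such a gap was found for 13.9% of all probes, and on the background scale the groups of miR-10b-5p overlapped.

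The lines were then compared with each other under the scrambled hairpin. miR-125b-5p had 20, 23 and 31 counts in scrambled THP-1, against 31, 42 and 43 counts in scrambled MOLM-14. It passed as lower in THP-1 with all 12 libraries fitted separately, with a log2 fold change of -0.79 ± 0.19 (95% interval -1.20 to -0.38, edgeR adjusted p = 0.0275). Of the tested probes 8.96% passed in this comparison, 4.48% as lower. The groups met at 31 counts and were apart on the background scale, as was the case for 7.77% of all probes and 11.9% of the tested ones. The 3 scrambled MOLM-14 libraries are 3 of the 4 in which this probe reached the count filter, so the filter leaned on the group where it was high. In the fit without the filter the value was -0.67 ± 0.24 with an edgeR adjusted p of 0.397 (0.251% of 798 called), and the call was lost in 10 of 24 alternatives, with DESeq2 (adjusted p = 0.0525) among them. With scrambled MOLM-14 replicates 2 and 3 averaged into 1 sample the edgeR adjusted p was 0.0726. It was 0.0503, 0.0786 and 0.0641 without scrambled MOLM-14 replicate 1, 2 or 3, and 0.0826 without scrambled THP-1 replicate 1.

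The remaining members did not differ detectably between the scrambled lines. miR-125a-5p averaged 45.3 ± 4.16 counts in scrambled THP-1 and 37.8 ± 20.9 in scrambled MOLM-14 (-0.02 ± 0.23, edgeR adjusted p = 0.986). miR-99b-5p averaged 31.0 ± 6.25 and 25.5 ± 3.54 counts, miR-100-5p 24.7 ± 2.52 and 19.8 ± 4.60, and miR-99a-5p 15.0 ± 5.29 and 17.3 ± 3.18 (SD, n = 3 in THP-1 and 2 in MOLM-14). Their edgeR adjusted p-values lay between 0.868 and 0.926.

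Over the 4 groups, mean counts of miR-125a-5p ran from 23.3 ± 2.08 (THP-1 with MUC1 shRNA) over 26.7 ± 3.79 (MOLM-14 with MUC1 shRNA) and 37.8 ± 20.9 (scrambled MOLM-14) to 45.3 ± 4.16 (scrambled THP-1), and each neighbouring pair in this order overlapped. miR-125b-5p had another order, with 18.0 ± 5.29 in MUC1 shRNA and 24.7 ± 5.69 in scrambled THP-1 below 25.3 ± 3.06 in MUC1 shRNA and 36.8 ± 8.13 in scrambled MOLM-14. Here the first 3 groups overlapped with their neighbours, and scrambled MOLM-14 stood above MUC1 shRNA MOLM-14.

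The profiles most like those of the members that passed the count filter were found by the mean absolute difference of log2 levels over the 12 samples, each probe centred on its own mean. For miR-125a-5p these were miR-874-5p (0.27), miR-25-3p (0.28) and miR-1322 (0.29), with a median of 0.44 over the other 66 tested probes. For miR-125b-5p they were miR-548y (0.23), miR-874-5p (0.28) and miR-1299 (0.30), with a median of 0.50. Neither miR-125 member was among the 3 closest to the other, and neither was a let-7 partner.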

How the data were processed

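Deposited values are whole-number NanoString counts for 798 probes in 12 samples, read as counts from the values themselves; the sources used here do not give the authors' software, background correction or lane scaling. The smallest value is 1. Members and lists were chosen with earlier results of these data known. The members, their let-7 cluster partners, other hairpin arms and miR-10 relatives were named by list, and the 3 closest profiles by rule. A probe entered the main test with 30 or more counts in 3 or more samples (67 probes). These were scaled with TMM and fitted in 1 edgeR 4.0.16 quasi-likelihood model of 4 group means (R 4.3.3), with Benjamini-Hochberg adjustment over the 67 and a threshold of 0.05. Probes below the filter come from the same model on all 798. The fit was also run on simulated data, with equal spread for all probes and balanced rises and falls. Other settings were not covered. Standard errors were taken from each p and its degrees of freedom. Alternatives were DESeq2 1.42.0, limma 3.58.1 (1 added to each count before scaling and log2), other scalings and filters, and subtraction of each library median. Further ones were a replicate block, fits of the compared groups, averaging 1 replicate pair, and leaving out each replicate. A robust fit was added after seeing the data. Same-numbered samples did not deviate together in THP-1 (correlations 0.13, -0.42 and -0.24) or replicate 3 of MOLM-14 (-0.22, with 0.36 and 0.41 for the others), so the numbers were not taken as pairs. miR-4319, miR-670-5p and the other 3' arms were not analysed here. Mature and hairpin sequences and positions are RefSeq's, matched by name for 5 of 5 members and 3 of 3 partners.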

Additional observations from a re-analysis of the deposited data

Results flagged for a closer look

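An interaction term, the MUC1 shRNA effect of THP-1 minus that of MOLM-14 on the log2 scale, passed for let-7a-5p (-6.90, edgeR adjusted p = 0.0117) and let-7c-5p (-2.44, edgeR adjusted p = 6.7e-05), the cluster partners of miR-100 and miR-99a. It also passed for let-7b-5p (-2.71, edgeR adjusted p = 1.86e-06), which is not one of the listed partners. For let-7d-5p, let-7g-5p and let-7i-5p it did not pass (edgeR adjusted p of 0.0543 or more). let-7a-5p was at the minimum of 1 in all 3 MUC1 shRNA libraries of THP-1, so its fitted value is no bound, and it lost the call with limma (-4.18, adjusted p = 0.102). let-7c-5p passed in 23 of 23 alternatives. For the 5 members the same test gave edgeR adjusted p-values of 0.121 or more.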

How the results depend on the processing

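Members' values were recomputed under 24 alternatives where the comparison allowed (475 values): 462 kept their side of the threshold, 10 lost a call, 3 gained one, and 0 called values turned sign. The lost calls were all of miR-125b-5p between the scrambled lines, where the count of members called was 0 with DESeq2, with no count filter, with a filter of 20 counts, with the library median subtracted, in the robust fit (added after seeing the data) and with scrambled MOLM-14 replicates 2 and 3 averaged. The gained calls were miR-125a-5p in THP-1 under background scaling (1 member called) and miR-125b-5p in THP-1 and in the difference of the lines without scrambled THP-1 replicate 3. Leaving out each replicate in turn gave 0 to 1 members called in THP-1, in the difference and between the scrambled lines, and 0 in MOLM-14. Counts of probes called ranged over the left-out replicates from 9 to 18 in MOLM-14, 20 to 39 in THP-1, 14 to 28 for the difference and 2 to 13 between the scrambled lines. The difference had 26 under background scaling, 2 higher and 24 lower, against 4 and 12 in the main test. In MOLM-14 that scaling gave 3 higher and 6 lower, against 5 and 6. Between the scrambled lines 6 probes were called, against 3 with DESeq2, with limma or with the filter of 20, 2 with no filter, with the median subtracted, in the robust fit or with the pair averaged, and 12 with only the compared groups fitted. Replicate numbers as a block gave 14 calls in MOLM-14, 25 in THP-1, 23 for the difference and 5 between the scrambled lines, with 0, 0, 0 and 1 members among them; the numbers did not pair the samples, and not every sample correlated best with its own number. Counts of 9 to 54 per library limit every member's value, and no alternative removes the panel's background from the folds except subtraction of the median.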

Other observations

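MOLM-14 MUC1 shRNA replicate 2, the library that gave miR-125a-3p its 63 counts, held 32 probes at 30 counts or more that stayed below 30 in the other 11 libraries, the highest at 147 counts. In each other library there were 0 to 8 such probes, with 52 counts as the highest. In the other 11 libraries miR-125a-3p had 7 to 17 counts. The 5 members had 15 to 28 counts in that library, except miR-99a-5p with 11. The part of that library in the MOLM-14 results was not tested beyond the values given without it.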
